A study of Danio rerio with 12 samples.

Results

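The genes examined here carry the symbols of families that conjugate ubiquitin and its relatives to proteins or take them off again. The activity of each single member was not checked. They were taken from the zebrafish array by symbol: a probe set was a member where the array annotation gave it a single gene whose symbol starts with ube2, ube3, uba or usp followed by a digit, uch, otud, fbxo, fbxl, fbxw, cul followed by a digit, skp, rbx, cops, rnf, nedd8 or sumo. This gave 181 of the 15502 probe sets tested, for 147 genes. A probe set is the group of short probes that reads a transcript, and 27 of the genes had more than 1 (61 probe sets in all, up to 4 a gene). RNA came from whole zebrafish embryos of the wild-type AB strain, obtained by natural fertilization, kept in E3 medium and collected at 24 hours post fertilization (hpf). In the morphine group, 10 nM morphine was in the medium from 5 hpf on, without interruption, and the control group had none. Each group had 6 pools of about 100 embryos, with 1 Affymetrix Zebrafish Genome Array per pool. The values are log2 signals. A pool averages its embryos, and in whole-embryo RNA fewer cells of a type cannot be told apart from less RNA per cell.

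Ubiquitin is a small protein that is attached to other proteins in a relay. An E1 enzyme activates it, an E2 enzyme carries it, and an E3 ligase brings the loaded E2 to the target. The largest class of E3 ligases are the cullin-RING complexes. In those built on cul1, the cullin scaffold holds a RING protein (rbx1) at its end. Through skp1 it also holds an F-box protein that picks the target. Attachment of NEDD8, a relative of ubiquitin, switches cullins on, and the COP9 signalosome takes it off again. Deubiquitinases (the usp, uch and otud families) cleave ubiquitin from proteins and recycle it. Chains of ubiquitin send many proteins to the proteasome, and other forms of the mark act in DNA repair, endocytosis and signalling.

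The 12 arrays had medians between 5.81 and 5.86 and correlated with each other at 0.99 to 0.999. On the first principal component of the members (34.2% of their variance), 3 arrays stood apart, control 1 at a score of 1.6, control 2 at 2.59 and morphine 1 at 1.58, while the 9 remaining arrays had scores from -1.97 to -0.08. The same 3 arrays had the lowest difference between the 3′ and 5′ actin control probe sets, a measure of RNA integrity and labelling, at 3.62 or less against 4.12 or more on the others. The groups overlapped in this measure (3.58 to 4.93 in control, 3.51 to 5.32 in morphine). Results that changed without these 3 arrays are given with and without them. Markers of whole-embryo tissues were read as list means over all arrays of both groups. These were 9.92 to 10.2 for skeletal muscle, 9.31 to 9.62 for blood and 6.86 to 7.01 for neurons and neural tube. Pigment cells had 6.32 to 6.69, and liver and yolk syncytial layer 8.87 to 8.94. Single markers were often dim, with a mean below 5, the level used as a filter on dim values. This held for 2 of 12 muscle, 0 of 7 blood and 3 of 19 neural probe sets. It also held for 3 of 6 pigment cell and 7 of 17 liver and yolk probe sets. Called between the groups were 1 of 12 muscle probe sets higher and 3 lower, 2 of 19 neural and 2 of 6 pigment cell probe sets lower, 1 of 17 liver and yolk probe sets higher and 2 lower, and 0 of 7 for blood, where limma gave 1 at an unadjusted p under 0.05 and SAM, the test of the methods, called 0. Over all probe sets tested, limma called 3.13% higher and 3.72% lower, and 16.6% had an unadjusted p under 0.05. No hatching gland marker matched a probe set. The part that such tissue markers or RNA quality have in the results below was not tested.

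**Figure D1:**
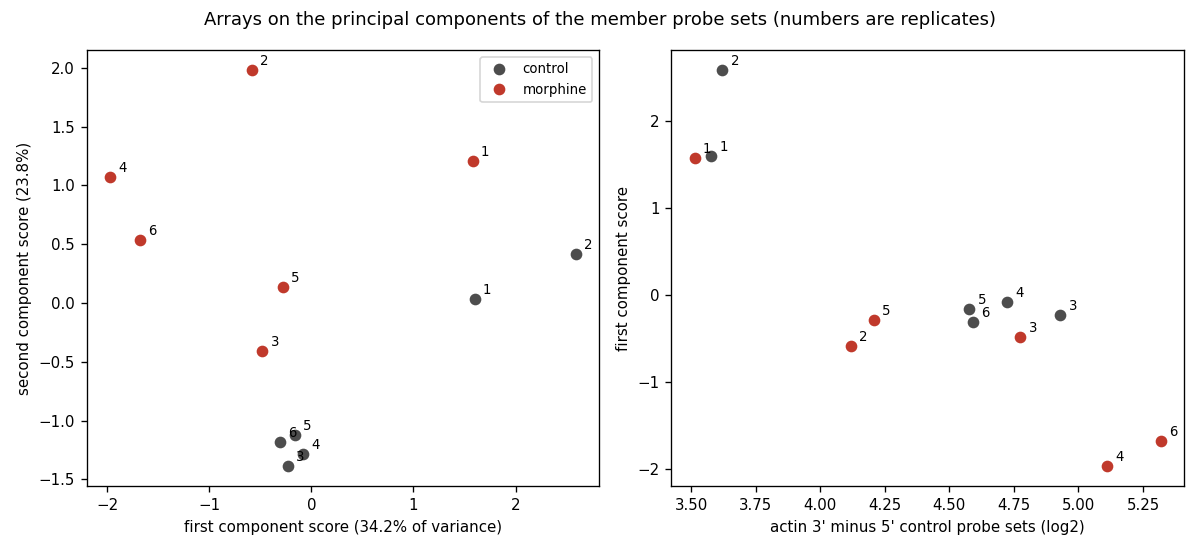
Left, the 12 arrays on the first and second principal components of the 181 member probe sets (scores on log2 signals, numbers are replicates). Right, the first component against the 3′ minus 5′ actin difference of each array (log2). Control replicates 1 and 2 and morphine replicate 1 lie apart at scores from 1.58 to 2.59 and have the 3 lowest actin differences.

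Most of the ubiquitin genes were at nearly the same level in both groups. Of the 181 probe sets, 116 differed by less than 0.1 on the log2 scale, and the median difference was -0.00868 (0.0089 over all probe sets tested). The median absolute difference was 0.0771, against 0.0674 over all probe sets, so the members were no more stable than the array as a whole. The limma test called 15 members of 13 genes at an adjusted p under 0.10, which is 8.29% of them against 6.85% of all probe sets. Of these, 3 were higher with morphine (1.66% against 3.13% of all) and 12 were lower (6.63% against 3.72%). The E2 gene ube2d2l, the iron-sensing F-box gene fbxl5 and the ligase gene rnf115a rose, and 10 genes fell, among them the F-box genes fbxo25 and fbxo44.9 and the deubiquitinase genes uchl5, uchl3, usp37 and usp14. After the filter on dim values, limma called 11.6% of members and 9.95% of all probe sets that passed. Of 146 members 5 were then called higher and 12 lower, against 412 and 547 of 9637 probe sets.

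Changes were small. Among the called members the smallest difference was 0.186 and the median 0.292, against 0.283 for all called probe sets, and 4 were called with a fold of at least 1.3 (2.21%, against 1.64% of all probe sets). For 7 members the 6 morphine and the 6 control arrays did not overlap (3.87%, against 3.61% of all). With the replicate number as a block, 6 members were called higher and 17 lower (12.7% in all, against 9.98% of all probe sets). Without 1 array the count of higher calls was 6 (morphine 1), 5 (morphine 3) or 1 (control 4, 5 or 6, or morphine 4 or 6). The count of lower calls was 7 without control 2, 3, 4 or 6 or morphine 2 or 4. Without control 2, for example, 7 of 181 members and 532 of 15502 probe sets were called lower. Over the 12 such fits, limma called 4.42% to 9.94% of members and 5.03% to 7.43% of all probe sets.

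**Figure D2:**
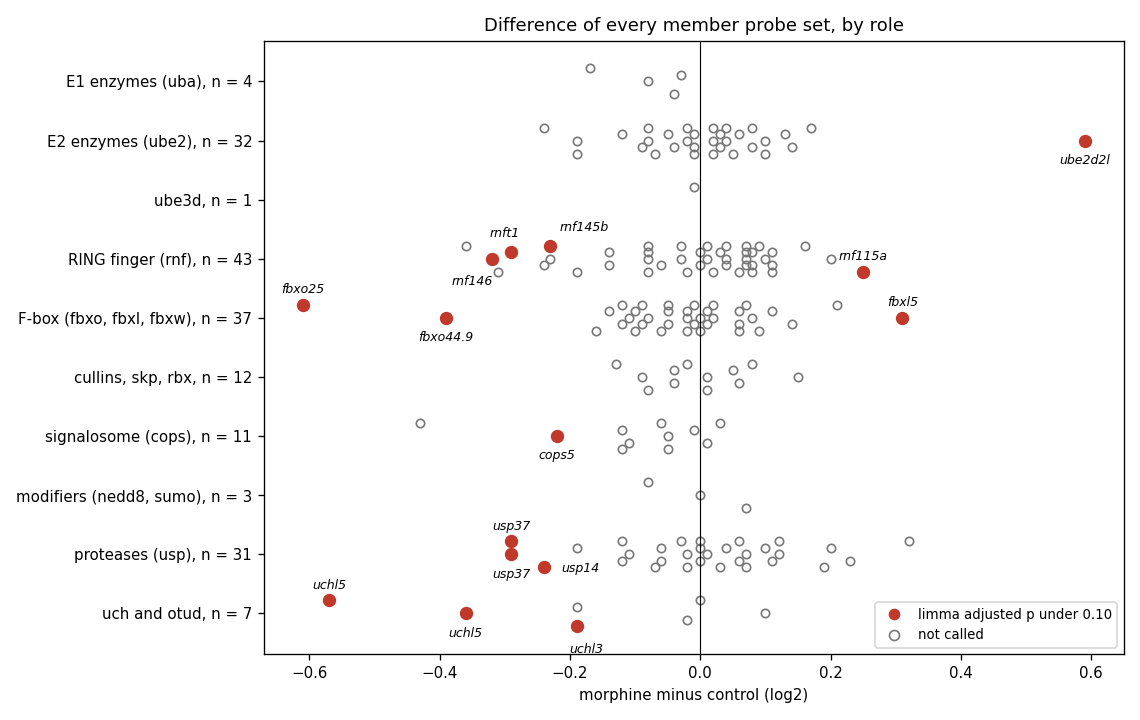
Morphine minus control (log2, x axis) for each of the 181 member probe sets, in rows by role with the number of probe sets. Filled points have a limma adjusted p under 0.10 and carry their gene symbol. The 3 higher calls are an E2, a RING finger and an F-box gene, and all 6 called deubiquitinase probe sets lie below 0.

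The 4 E1 probe sets, of uba1, uba2, uba3 and uba7, all had negative differences (46.2% of all probe sets did), most of them near 0. Of the 4, 0 were called by limma or by SAM (1 had an unadjusted p under 0.05 in limma). Of all probe sets, limma called 6.85%, and 16.6% had an unadjusted p under 0.05. uba1, the main ubiquitin-activating enzyme, read 9.53 ± 0.06 in control and 9.5 ± 0.16 in morphine embryos (SD, n = 6), a difference of -0.03 ± 0.07 (SE). uba2 and uba3, subunits of the activating enzymes for SUMO and NEDD8, differed by -0.08 ± 0.07 and -0.04 ± 0.05 (SE). uba7, which in mammals activates the interferon-induced modifier ISG15, differed by -0.17 (adjusted p = 0.29).

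Among the 32 E2 probe sets (27 genes), limma called ube2d2l alone (6.85% of all probe sets were called). It encodes a relative of UBE2D2, an E2 that works with many ligases. Its probe set ran from 9.18 to 9.34 on the control arrays (median 9.26) and from 9.68 to 10.07 on the morphine arrays (median 9.85). The groups thus lay apart, with every morphine array above every control array. The means were 9.27 ± 0.06 and 9.85 ± 0.16 (SD, n = 6), a difference of 0.59 ± 0.07 (SE), or 1.5-fold (limma adjusted p = 7.08e-05). The exact permutation p was 0.00216, the smallest that 6 against 6 arrays allow. This was the highest difference among the members, and it was called in each of the 12 fits that left out 1 array (adjusted p from 8.17e-05 to 0.000356).

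The other ube2d genes among the members stayed near 0. ube2d1a differed by -0.02, ube2d1b by -0.08, ube2d2 by 0.06 and ube2d3 by 0.03, and none passed the test. The difference in change was tested directly, on the difference between the probe sets on each array. ube2d2l rose by 0.61 more than ube2d1a, 0.66 more than ube2d1b and 0.56 more than ube2d3 (exact permutation p = 0.00216 each, n = 6 a group). Against ube2d2 the difference in change was 0.52 (exact permutation p = 0.00649). In all, 15 such differences were computed, each for a probe set picked because it was called, so these raw p values are too small by the choice.

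The other E2 probe sets lay between -0.24 and 0.17. ube2g1b was the member nearest to the threshold without passing it: its brighter probe set ran from 9.02 to 9.15 in control and from 9.15 to 9.4 in morphine embryos and did not overlap between the groups before rounding (difference 0.17 ± 0.06, adjusted p = 0.1, exact permutation p = 0.00216, n = 6). With the replicate block its adjusted p was 0.098. SAM called it at a q (its false discovery rate) of 0.0444, under the threshold of 0.10. The second ube2g1b probe set differed by -0.01 and the duplicate gene ube2g1a by -0.08. ube2a, whose product marks histone H2B and acts in DNA damage tolerance, did not overlap between the groups. It read 9.71 to 10.01 in control and 9.47 to 9.69 in morphine embryos (difference -0.19 ± 0.06). Its limma adjusted p was 0.124, while SAM called it (q = 0.0586). Its relative ube2al differed by 0.1. ube2s, the chain-extending E2 of the anaphase-promoting complex, differed by -0.24 (adjusted p = 0.15) on its brighter probe set and by -0.04 on the other. ube2t, of the Fanconi anaemia pathway, differed by -0.19 (adjusted p = 0.197).

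**Figure D3:**
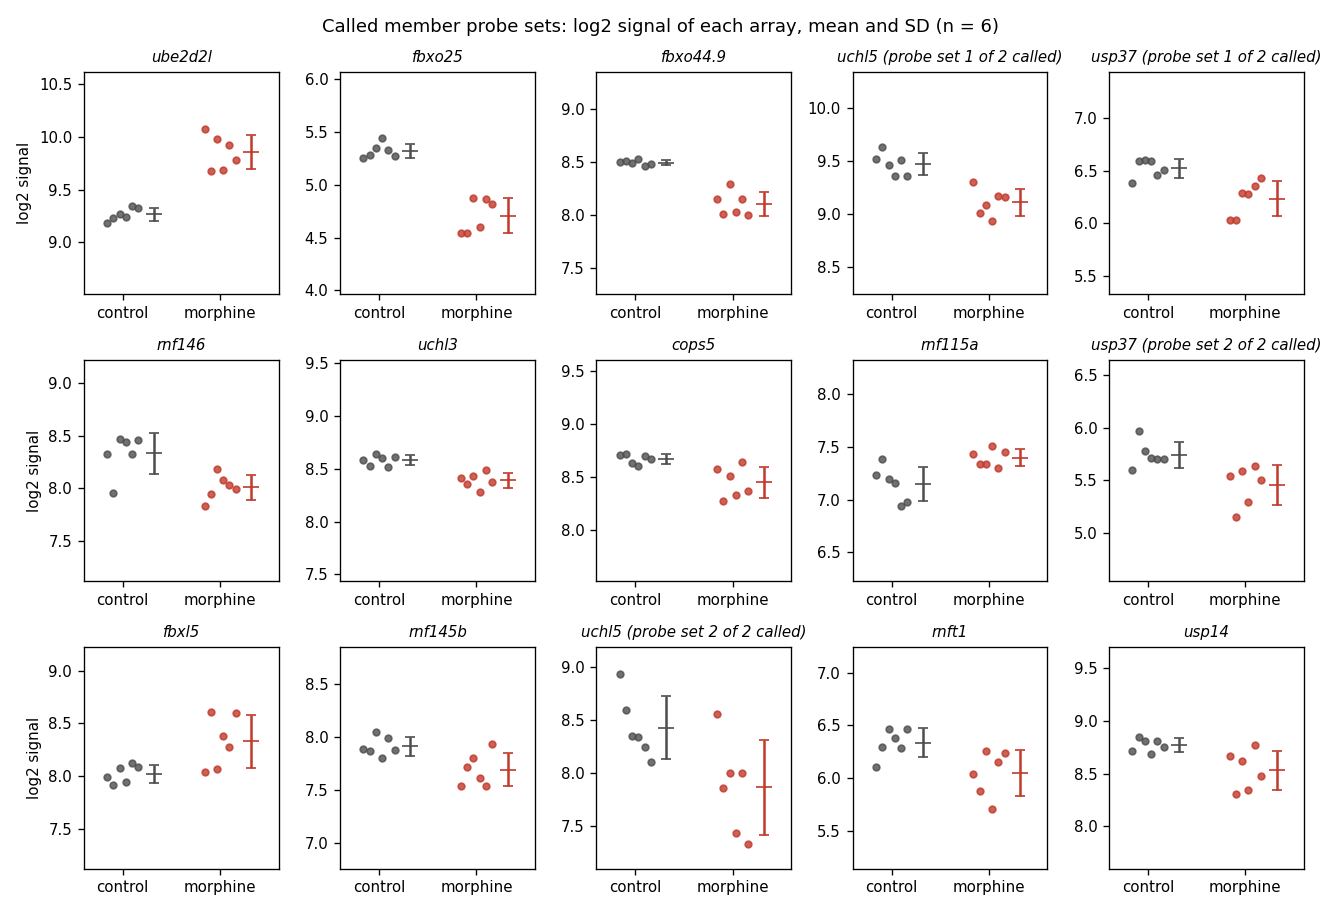
Log2 signal (y axis, of the same height in each panel) of every array for the 15 called member probe sets, control in grey and morphine in red, with mean and SD (n = 6) beside the points. The groups lie apart for ube2d2l, fbxo25, fbxo44.9, uchl3 and the first uchl5 probe set and overlap in the other panels.

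F-box genes held the lowest difference of all members and also a higher call. Of their 37 probe sets (30 genes), limma called 1 higher and 2 lower, and the median difference was -0.0166. The shares over all probe sets tested were 3.13% higher and 3.72% lower. fbxo25, an F-box gene related to the muscle atrophy gene fbxo32, read 5.25 to 5.44 in control embryos (median 5.3) and 4.54 to 4.88 in morphine embryos (median 4.71) on its brighter probe set. The groups did not overlap, and the mean difference was -0.61 ± 0.07 (SE), or 1.53-fold lower (limma adjusted p = 7.08e-05). This is a dim probe set: the control arrays lie above the level of 5 used as a filter on dim values, and the morphine arrays below it. A second fbxo25 probe set, dimmer still at 4.1 ± 0.12 in control and 3.99 ± 0.15 in morphine embryos (SD, n = 6), differed by -0.1 (adjusted p = 0.552). The probe sets differed in change by -0.51 (exact permutation p = 0.00433, n = 6). fbxo32 itself was near the bottom of the scale in both groups (3.59 and 3.61).

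fbxo44.9 belongs to a zebrafish cluster of genes like the mammalian FBXO44, whose product picks ligase targets. Its control arrays were within a narrow range, 8.46 to 8.53 (median 8.5), and its morphine arrays ran from 8 to 8.29 (median 8.09). Every morphine array was below every control array, by -0.39 ± 0.05 (SE) on average, or 1.31-fold (adjusted p = 0.00043). Of its relatives, fbxo44.1 differed by -0.01 and -0.11 on 2 probe sets and fbxo44.5 by -0.12 and -0.05, none of them called. fbxo44.9 fell further than the brighter fbxo44.1 probe set by 0.37 (first minus other -0.37, exact permutation p = 0.00216, n = 6), while the comparison with the second gave -0.28 (exact permutation p = 0.11). Against the fbxo44.5 probe sets the values were -0.27 (p = 0.0173) and -0.34 (p = 0.00433), by the same exact permutation test. Genes this alike can share probes, and the sources used here do not say how their probe sets were kept apart.

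fbxl5, which in mammals senses iron and sends the iron regulatory protein to the proteasome, rose on 1 of its 2 probe sets. It ran from 7.92 to 8.12 in control (median 8.04) and from 8.04 to 8.61 in morphine embryos (median 8.33), so the groups overlapped and 4 of the 6 morphine arrays were above all controls. The difference was 0.31 ± 0.09 (SE, adjusted p = 0.0851), and it was called without morphine 1 or morphine 3 but in none of the other 10 fits that left out an array (adjusted p from 0.0266 to 0.185 over all 12). The dimmer probe set differed by 0.09 (adjusted p = 0.675), with a difference in change of 0.22 (exact permutation p = 0.0519, n = 6). Other F-box genes with an unadjusted p under 0.05 were fbxo9 at -0.14 (adjusted p = 0.156), fbxw8 at -0.16 (0.179), fbxl3a at 0.21 (0.3) and fbxo46 at 0.14 (0.279). Limma called none of these. SAM called 4 F-box probe sets in all, and its q values for these genes are not given here. fbxw11a and fbxw11b, which pick the targets of a well-known cullin ligase, differed by 0.08 and 0.

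None of the genes grouped here by the symbols cul, skp and rbx was called. All 12 probe sets of the cullins, skp1, skp2 and rbx1 lay between -0.134 and 0.15, and 0 were called by limma or by SAM, with 0 at an unadjusted p under 0.05 in limma. Limma called 6.85% of all probe sets, and 16.6% had an unadjusted p under 0.05. cul1a read 8.37 ± 0.14 and 8.38 ± 0.08, cul1b 7.9 ± 0.08 and 7.91 ± 0.04, in control and morphine embryos (SD, n = 6). The bright probe set of cul3a differed by -0.13 ± 0.06 (adjusted p = 0.311, unadjusted exact permutation p = 0.0476, n = 6), with 4 of 6 morphine arrays below all controls. skp1, the adaptor between cullin and F-box protein, differed by -0.08 ± 0.08, and rbx1, the RING subunit, by -0.04 ± 0.05. The modifiers nedd8 (-0.08), sumo2b (0.07) and sumo3a (0) were not called either, and their arrays overlapped between the groups.

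The COP9 signalosome, which takes NEDD8 off cullins, had 9 of 11 probe sets below 0 (46.2% of all probe sets were), with a median of -0.0577, and 1 was called (6.85% of all were). The 11 probe sets read 7 genes, with 3 each for cops4 and cops5, so they are not independent. This was cops5, the catalytic subunit. Its brightest probe set read 8.6 to 8.72 in control (median 8.69) and 8.27 to 8.64 in morphine embryos (median 8.44). Of the morphine arrays, 5 of 6 were below all controls, and the difference was -0.22 ± 0.06 (SE, adjusted p = 0.0621). It was called in 5 of the 12 fits that left out an array (control 3 or 4, or morphine 1, 3 or 5) and not in the other 7 (up to 0.14), nor without the 3 arrays that stand apart (0.132).

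The other 2 cops5 probe sets were dimmer and far more spread. The brighter of these ran from 5.62 to 6.62 in control and from 5.15 to 6.61 in morphine embryos (-0.43 ± 0.23, adjusted p = 0.363, and 0.0521 with the replicate block). Its 3 high arrays, at 6.61, 6.62 and 6.61, were control 1, control 2 and morphine 1, the arrays with the lowest actin difference. The dimmest differed by 0.01 and was also highest on these 3 arrays (5.36, 5.35 and 5.21). The remaining signalosome genes lay between -0.12 and 0.03, with cops2 at -0.12, cops8 at -0.11 and cops3 at -0.01.

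Among the 43 RING finger (rnf) probe sets of 36 genes, 1 was called higher and 3 lower by limma. Of all probe sets tested, 3.13% were called higher and 3.72% lower. rnf146 encodes a ligase that in mammals recognises poly(ADP-ribose) and acts in Wnt signalling. Its called probe set read 7.96 on control 2 and 8.33 to 8.47 on the other 5 controls, and 7.83 to 8.18 in morphine embryos. Apart from control 2, all controls were above all morphine arrays, and the difference was -0.32 ± 0.08 (SE, adjusted p = 0.0366). It was called in all 12 fits that left out an array, with an adjusted p from 0.00158 (without control 2) to 0.0905 (without control 3). The probe set with the same design and shared probes differed by -0.31 (adjusted p = 0.159, 0.0304 with the replicate block and 0.0161 without the 3 arrays that stand apart). It was called by SAM (q = 0.0532). A further rnf146 probe set, with shared probes, had the widest spread within groups of any member (SD 0.5) and differed by -0.23 ± 0.23 (adjusted p = 0.689).

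rnf115a, a ligase gene whose mammalian counterpart binds Rab7, rose. It ran from 6.94 to 7.38 in control (median 7.18) and from 7.3 to 7.51 in morphine embryos (median 7.38), a difference of 0.25 ± 0.07 (SE, adjusted p = 0.0636). The groups overlapped, with 3 of 6 morphine arrays above all controls. It lost its call without control 4, 5 or 6 or morphine 4 or 6 (up to 0.144).

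rnf145b, counterpart of a mammalian ligase of the endoplasmic reticulum that responds to sterols, read 7.8 to 8.05 in control (median 7.89) and 7.54 to 7.93 in morphine embryos (median 7.67), with 4 morphine arrays below all controls. The difference was -0.23 ± 0.07 (SE, adjusted p = 0.0952). It was called without morphine 3 or 6, in none of the other 10 fits that left out an array (up to 0.2), and not without the 3 arrays that stand apart (0.211). rnft1, a membrane protein with a RING finger, read 6.11 to 6.47 and 5.71 to 6.26 in control and morphine embryos, which overlap (-0.29 ± 0.09, adjusted p = 0.0978). It was called without control 1 or morphine 3 or 6 only (up to 0.207 otherwise).

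Below the threshold, rnf4, the ligase that ubiquitinates SUMO-marked proteins, differed by -0.36 ± 0.12 (adjusted p = 0.112). With the replicate block its adjusted p was 0.00899, and without the 3 arrays that stand apart it was 0.281. rnf4 was called by SAM (q = 0.0241). rnf113a, a splicing-associated RING protein, differed by -0.24 ± 0.08 (adjusted p = 0.125, and 0.094 with the block). SAM called it too (q = 0.0494). Limma did not call the histone H2B ligase genes rnf20 (0.2 and 0.09) and rnf40 (0.04). Nor did it call rnf2, a Polycomb subunit (-0.08), or the DNA damage ligases rnf8 (0.07) and rnf168 (0).

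Deubiquitinases accounted for 6 of the 12 lower calls, on probe sets of 4 genes, and for none of the higher ones. Over all probe sets tested, 3.72% were called lower and 3.13% higher, and no test of the family against them was run. This one-sided count depends on the threshold: usp8 was higher at a limma adjusted p of 0.101, and SAM called it (q = 0.0444). The brighter uchl5 probe set, the first usp37 probe set and uchl3 kept their call in all 12 fits that left out an array. The second usp37 probe set kept it in 6 of the 12, and usp14 and the dimmer uchl5 probe set in 2. Of the 38 probe sets of the usp, uch and otud genes, 31 belong to usp genes, of which 3 were called lower, and 7 to uch and otud genes, of which 3 were called lower. The usp probe sets had a median difference of 0.00379 and the uch and otud ones of -0.186. All 3 calls in the smaller family were of uch genes, and otud4 (0), otud5a (0.1) and otud7b (-0.02) did not change beyond their spread.

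uchl5 encodes a deubiquitinase that sits on the proteasome and on the INO80 chromatin remodeller. Its brighter probe set read 9.36 to 9.63 in control (median 9.48) and 8.93 to 9.3 in morphine embryos (median 9.12). The groups did not overlap, and the difference was -0.36 ± 0.07 (SE), or 1.29-fold lower (adjusted p = 0.00439), called in every fit that left out an array (up to 0.0133). The dimmer probe set ran from 8.1 to 8.94 and from 7.33 to 8.56 and had a larger difference with a larger error, -0.57 ± 0.18 (adjusted p = 0.0958).

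Within each group its values followed the arrays that stand apart: control 1 and 2 read 8.94 and 8.6 against 8.35 or less on the other controls, and morphine 1 read 8.56 against 8 or less. It was called without control 6 or morphine 1 and in none of the other 10 fits that left out an array (0.013 to 0.21 over all 12). Without all 3 such arrays its adjusted p was 0.0374. uchl3, which trims ubiquitin and NEDD8 precursors, was 1.14-fold lower: 8.52 to 8.64 in control (median 8.59) and 8.28 to 8.49 in morphine embryos (median 8.4). The difference of -0.19 ± 0.05 (SE, adjusted p = 0.0372) was the smallest of the called members, and the groups did not overlap. uchl1, the neuronal family member, differed by the same -0.19 but with wider spread in morphine embryos (SD 0.19 against 0.05). Limma did not call it (adjusted p = 0.188), while SAM did (q = 0.0972).

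usp37, a cell cycle deubiquitinase, was called on 2 of its 4 probe sets. The first ran from 6.38 to 6.6 in control (median 6.55) and from 6.03 to 6.43 in morphine embryos (median 6.29), with 5 of 6 morphine arrays below all controls (-0.29 ± 0.07, adjusted p = 0.0333). The second, of the same design, gave -0.29 ± 0.08 (adjusted p = 0.0657), and so it is no independent reading of the gene. It lost its call without control 2, 3, 4 or 6 or morphine 2 or 4 (up to 0.147) and without the 3 arrays (0.11). The 2 usp37 probe sets of another design differed by 0.07 and 0.03 and were not called. Between the first probe set and these, the difference in change was -0.35 and -0.31 (exact permutation p = 0.0173 each, n = 6).

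usp14 also encodes a deubiquitinase that binds the proteasome. It read 8.68 to 8.85 in control (median 8.78) and 8.31 to 8.77 in morphine embryos (median 8.55), with 5 of 6 morphine arrays below all controls. The difference was -0.24 ± 0.08 (SE, adjusted p = 0.0981). It was called without morphine 1 or 5, in none of the other 10 fits that left out an array (up to 0.21), and not without the 3 arrays (0.141). Higher but not called by limma was usp8, which acts on endosomes (0.19 ± 0.06, adjusted p = 0.101, 0.0826 with the replicate block and 0.0912 without the 3 arrays). It was called by SAM (q = 0.0444). Also higher and not called were usp13 (0.2, adjusted p = 0.242) and the nucleolar usp36 (0.32 and 0.23, adjusted p = 0.279 and 0.307). usp3 differed by -0.19 (adjusted p = 0.244), and usp7, which in mammals acts on p53 and its ligase, by 0.04 and 0.

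**Figure D4:**
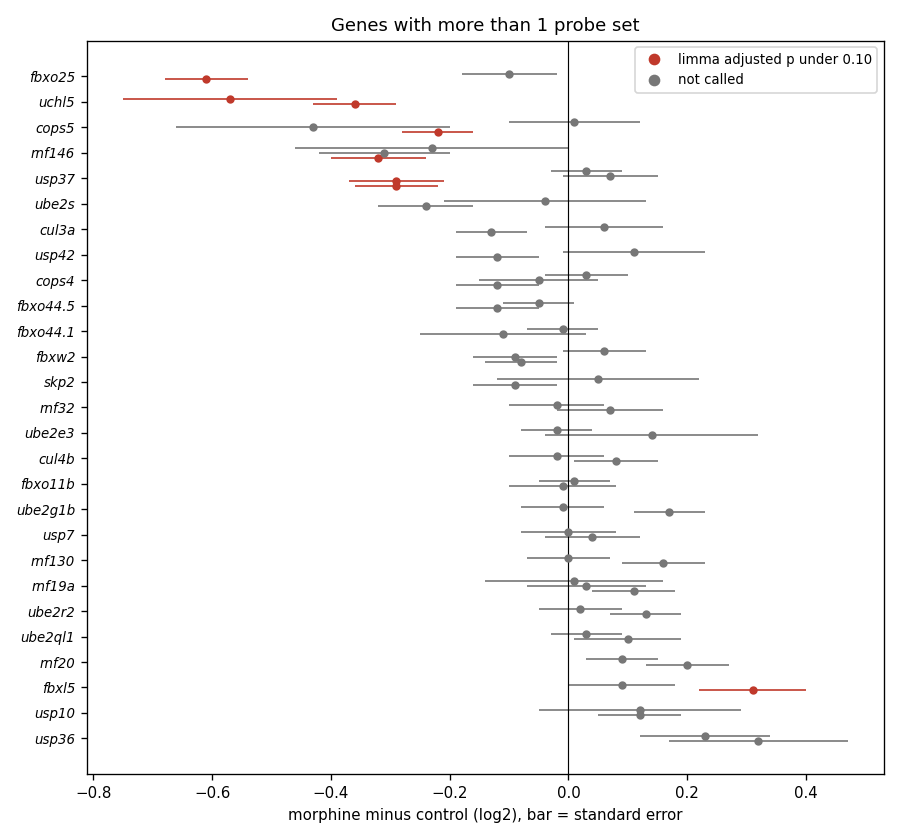
Morphine minus control (log2, x axis, bars are standard errors) for each probe set of the 27 member genes with more than 1 probe set, with called probe sets in red. For uchl5 both probe sets were called. For usp37 2 of 4 were, and for fbxo25, cops5, rnf146 and fbxl5 1 was.

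How far the probe sets of a gene moved together could be read for 27 genes. In 15 of them all probe sets had the same sign and in the other 12 both signs occurred. In the 21 genes without a call the probe sets lay at most 0.236 apart. Of the 6 genes with a call, 2 (uchl5 and usp37) had more than 1 called probe set, and cops5 and usp37 had probe sets on both sides of 0. Zebrafish carry many genes in duplicate, and 10 such pairs were among the members (21 probe sets, of which limma called 0 and SAM called 1, with 2 at an unadjusted p under 0.05, of ube2g1b and fbxl3a). The limma shares over all probe sets were 6.85% called and 16.6% at an unadjusted p under 0.05. In most pairs both copies were near 0, as for ube2na and ube2nb (0.04 and -0.01) or fbxl14a and fbxl14b (-0.1 and -0.05). The copies cul5a and cul5b differed by -0.04 and 0.15 and rnf11a and rnf11b by -0.19 and 0.01, and none of these 4 was called.

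**Figure D5:**
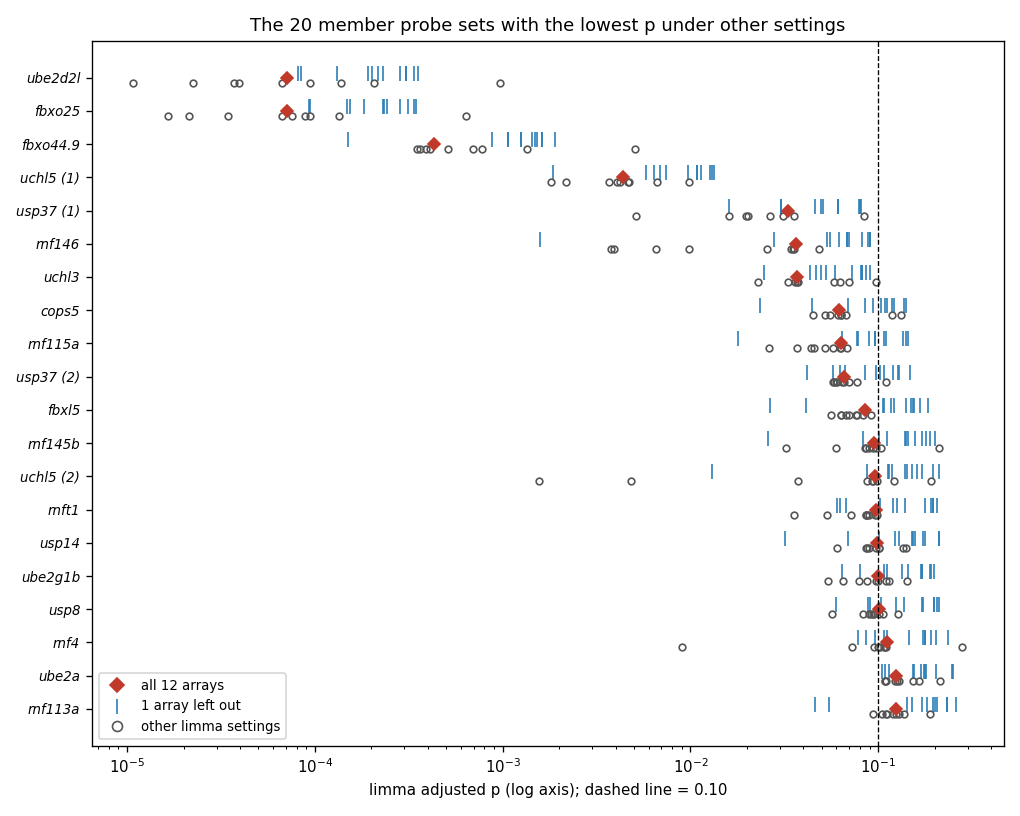
Limma adjusted p (x axis, log scale) of the 20 member probe sets with the lowest p: with all 12 arrays (diamonds), with each array left out (bars) and under the other limma settings (circles). The dashed line is the threshold of 0.10. The first 7 stay below it in each limma setting shown, ube2a stays above it, and the other 12 cross it.

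Of the 15 called members, 7 were called under every setting and with any array left out: ube2d2l, fbxo25, fbxo44.9, the brighter uchl5 probe set, the first usp37 probe set (not present where shared-sequence probe sets were dropped), rnf146 and uchl3. For fbxo25 the filter on dim probe sets is no check, since it passed that filter through the control arrays alone. These 7 include the only higher call that held throughout. The other 8 lost their call in at least 5 of the 12 fits that left out an array. All 15 were called with the replicate block and with SAM. SAM called 25 members in all, among them 4 E2, 4 F-box and 8 RING finger probe sets. Its q values are given above for only part of the members that limma did not call.

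Outside the members, 213 further probe sets of ubiquitin pathway genes (180 genes) were counted from lists: ubiquitin itself, the anaphase-promoting complex, HECT ligases, other RING and U-box ligases, cullin adaptors, other deubiquitinases, SUMO enzymes, conjugation of UFM1 and autophagy modifiers, and p97 with the ubiquitin shuttles. Of these, limma called 6 higher and 8 lower, with a median of -0.000329, and SAM called 22. Over all probe sets tested, limma called 3.13% higher and 3.72% lower, SAM called 11%, and no list was tested against these shares. No probe set of the ubiquitin genes (0 of 4), the anaphase-promoting complex (0 of 14), the HECT ligases (0 of 11) or the SUMO enzymes (0 of 17) was called by limma, with 0, 2, 0 and 0 at an unadjusted p under 0.05, and SAM called 0 in each of these lists. Among all probe sets tested, 16.6% had an unadjusted p under 0.05 in limma. Other RING and U-box ligases had 3 higher and 1 lower of 63, with znrf2a at 0.25 and the muscle ligase trim63a at -0.21. Cullin adaptors had 2 higher and 2 lower of 37, with klhl11 at 0.25 and klhl18 at -0.36.

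Other deubiquitinases had 1 higher and 2 lower of 18. The lower ones were the duplicates otulina (-0.35 ± 0.08, adjusted p = 0.0123) and otulinb (-0.27 ± 0.07, adjusted p = 0.0359), whose mammalian counterpart cleaves linear ubiquitin chains, and the higher one was eif3hb (0.39 ± 0.06, adjusted p = 0.000732), a translation initiation subunit with a deubiquitinase-like domain. The modifier ufm1 (-0.26) and its E2 ufc1 (-0.21) were both called lower, among 18 probe sets of that list. rad23b, a shuttle that carries ubiquitinated proteins to the proteasome and a DNA repair factor, was the 1 limma call among 31 p97 and shuttle probe sets. It read 7.82 ± 0.09 in control and 7.37 ± 0.26 in morphine embryos (SD, n = 6), a difference of -0.44 ± 0.1 (SE, adjusted p = 0.0129). SAM called 5 of the 31, and 6 had an unadjusted p under 0.05 in limma. The lowest difference in this list was -0.803, on a probe set that limma did not call.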

How the data were processed

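Total RNA of 12 embryo pools was hybridized to 1 array each. The authors made the deposited log2 signals with RMA (background correction, quantile normalization and probe set summary over the arrays), and its version is not given in the sources used here. Of 15617 probe sets, 115 Affymetrix controls were left out. An array has no read depth, so precision rests on the number of arrays. Groups came from the sample titles, which call the pools biological replicates. Probe sets were named from the platform annotation, and all 147 member symbols were found in the current reference annotation.

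Morphine was compared with control with a two-sided limma fit (limma 3.58.1, R 4.3.3), Benjamini-Hochberg adjustment over 15502 probe sets and calls at an adjusted p under 0.10, the rate of the methods. Single probe sets were also tested by exact permutation over all 924 splits of the arrays. The scripts were tested on simulated data. Alternatives were SAM (100 permutations), the replicate number as a block, other variance models and weights, renormalization, a filter on dim probe sets (a log2 signal of 5 on 6 arrays), unshared probe sets, a threshold of 0.05, the actin difference as a covariate, 3 arrays left out and each array left out.

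Same-numbered control and morphine arrays deviated together (correlation 0.225 to 0.471 in all 6 pairs), so the numbers were treated as pairing the arrays in an alternative fit. The mean between different numbers was -0.058. Each group was centred on its own mean, which largely fixes that value, so it is no separate comparison. The main limma fit, for which the methods name no pairing, and all exact permutation tests leave the pairing out. The pairing comes from this check, and the labels do not say what a number stands for. Members and lists were chosen with earlier results of these data known. Named genes were all called members, the other probe sets of their genes, the 5 next members, members without overlap between groups, the 3 with the largest spread, standard genes of each complex, and up to 4 called genes a list. Further members were chosen after their values were seen, as examples of a family or for an unadjusted p under 0.05, and so were the duplicate pairs and the differences in change between probe sets. Figures were drawn with matplotlib 3.10.9.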

Additional observations from a re-analysis of the deposited data

Results flagged for a closer look

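In 4 of 80 groups of 6 arrays (40 named member probe sets in 2 groups), 1 array lay far from the other 5 by Dixon's criterion. That is 5%, and chance flags about 1 in 20 groups. All 4 were control replicate 2, an array that also stands apart on the first component of the members. It was low for rnf146 at 7.96 (other controls 8.33 to 8.47) and at 7.76 on the probe set of the same design (8.33 to 8.43), so these are not separate observations. It was low for cul1a at 8.09 (8.34 to 8.48) and high for ube2a at 10.01 (9.71 to 9.75). Without this array the called rnf146 probe set had a limma adjusted p of 0.00158 and its partner 0.00673, while ube2a remained uncalled.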

How the results depend on the processing

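The median difference of the members kept within the spread between replicates under every alternative. The count of higher members, 3, was 6 with SAM, 6 with the replicate block, 5 with the actin covariate, 5 after the filter on dim probe sets, 5 after quantile normalization again, 1 at an adjusted p under 0.05, and 1 to 6 with an array left out. The count of lower members, 12, was 19 with SAM, 17 with the replicate block, 15 with the actin covariate and 6 at an adjusted p under 0.05. It was 9 after quantile normalization again, 9 without the 3 arrays that stand apart, and 7 to 13 with an array left out. A lower threshold gives fewer calls by construction, and the cause of the other shifts was not tested. Over all probe sets, SAM called 1701 (11%) against 1062 (6.85%) with limma, and 1547 (9.98%) were called with the block. The shares of members called were 13.8%, 8.29% and 12.7%, in the same order. The block called 6 further named probe sets, whose values stand beside them in the report, and changed no other named call. The direction turned only where the difference was near 0. Adjusted p values there were 0.746 for the dim cul3a probe set, 0.869 for cul1b and 0.702 for cul1a without the 3 arrays that stand apart, 0.986 for cul1a with the actin covariate and 0.9 with array weights, 0.987 for the dimmest cops5 probe set after quantile normalization again, and 0.998 for sumo3a with centred arrays. With some array left out the direction turned for the same probe sets, uba1 and a usp37 probe set, and adjusted p over the 12 such fits ran from 0.709 to 0.981 for cul3a, 0.654 to 0.981 for uba1, 0.655 to 0.997 for usp37, 0.813 to 0.991 for cul1b, 0.735 to 1 for cul1a, 0.758 to 1 for cops5 and 0.799 to 0.994 for sumo3a. Of 912 single values over all alternatives, 759 kept their direction and their side of the threshold, 86 lost the call, 41 gained it and 26 turned. Of the 181 members, 35 did not pass the filter on dim values, and limma and SAM called 0 of these, with 2 at an unadjusted p under 0.05 in limma. The limma shares over all probe sets, dim or not, were 6.85% called and 16.6% at an unadjusted p under 0.05.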

Other observations

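The genes next to the called members were counted along the current reference annotation, 5 genes of the array on each side, after the values were seen. Of 124 neighbours, 14 had a called probe set (11.3%), against 10.7% of the neighbours of all called genes and 8.58% of all placed array genes. For fbxo25, 5 of its 10 neighbours were called, a count that 26 genes of the array reach (0.298%). It has the highest count of the called member genes, and this share does not allow for that choice. For the other called members it was between 0 and 2. The genes fbxo25, fbxo44.9 and rnf146, called lower, and fbxl5, called higher, lie on the same chromosome. It holds 18 members, and 9.15% of all placed probe sets on it were called. This chromosome was picked out after the calls were known.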
